A study of Mus musculus with 6 samples.

Results

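Runx1, Runx2, Runx3 and Cbfb were followed by their symbols through 6 single-nucleus RNA-seq libraries of mouse tibial periosteum, the tissue layer that covers bone and feeds its repair. All 4 genes were listed in every library, among 30406 genes that the 6 libraries had in common. The mice were wild-type C57BL/6ScNj animals of both sexes, 12 weeks old. The uninjured group had 2 libraries of scraped periosteum pooled from 4 mice. The fractured groups had 2 libraries at day 3, 1 at day 5 and 1 at day 7 after an open, non-stabilised tibial fracture, each pooled from 4 to 9 mice and made from periosteum together with the hematoma. Each library was a pool, so single animals could not be compared. The paper mixed both sexes in its groups but does not give the sexes in each library. A difference in sex between libraries was not tested. A group differed from the uninjured one in the injury, the tissue scraped and the anaesthetic and analgesic drugs given for surgery. These cannot be told apart.

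RUNX1, RUNX2 and RUNX3 are transcription factors that share a DNA-binding Runt domain, and CBFB is the partner that binds no DNA itself and steadies each of them on DNA. RUNX1 is best known from blood cell formation, RUNX2 as the factor that osteoblasts and maturing chondrocytes depend on, and RUNX3 from cytotoxic T cells and from cartilage. In fracture repair, skeletal stem/progenitor cells (SSPCs) of the periosteum pass through an injury-induced fibrogenic cell (IIFC) stage on the way to bone and cartilage, so the members were read across stromal, immune and vascular nuclei.

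The 3 Runx genes carry the same pair of RUNX-type motifs near a start site, which is shown here because the motif is what the family itself binds. Runx1 lies on chromosome 16 from 92601466 to 92826149 on the minus strand, Runx2 on chromosome 17 from 44495987 to 44814797 on the minus strand, Runx3 on chromosome 4 from 135120652 to 135177990 on the plus strand, and Cbfb on chromosome 8 from 105170674 to 105217989 on the plus strand (GRCm38). Windows of 300 bases around annotated start sites (RefSeq, GRCm38.p6) were searched on both strands for AACCACA, whose reverse complement is TGTGGTT. In each stretch the capitals mark the motif, and the lines give chr16:92826025-92826054 (minus strand), chr17:44814583-44814612 (minus strand) and chr4:135120503-135120532 (plus strand).
Runx1: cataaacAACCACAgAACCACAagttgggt
Runx2: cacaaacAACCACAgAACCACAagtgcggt
Runx3: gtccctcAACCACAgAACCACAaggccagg
The pair began 28 and 36 bases after the start site of Runx1, 23 and 31 bases after that of Runx2, and 135 and 127 bases before that of Runx3. The longest run shared by the stretches of Runx1 and Runx2 was 22 bases, and each shared a run of 18 bases with Runx3. A pair spaced by 8 bases occurred in 5 of 32851 windows (0.0152%): those of the 3 Runx genes, Gm16225, whose window overlaps that of Runx3, and Olfr24. A single match was present in 1731 windows (5.27%). The Runx2 window held another match, 81 bases before the start site at chr17:44814690-44814719 (minus strand).
Runx2 upstream: gtgaggtcacaAACCACAtgattctgtctc
The second annotated window of Runx1, that of Runx3 and the window of Cbfb held 0 matches. Supt3 and antisense transcripts (Runx2os1 to Runx2os3) overlap Runx2 on the opposite strand, and the sources used here do not say whether counting used the strand, so reads of these genes may not be told apart from Runx2. The counts come from the 3' ends of transcripts and do not tell which start site was used.

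The libraries held 1499281 to 29796296 unique molecular identifiers (UMIs, counts of single RNA molecules) in 655 to 4712 barcodes, 13551 barcodes in all. Limits on genes and mitochondrial and ribosomal shares, and removal of muscle nuclei, left 6213 nuclei in 23 clusters and 12 populations, each named "-like" from marker genes. The stromal sum of each library took in osteoblast-like, chondrocyte-like, fibroblast-like, SSPC-like and IIFC-like nuclei. The immune sum included osteoclast-like nuclei, and the vascular sum joined endothelial-like with pericyte/smooth muscle (SMC)-like nuclei. Each sum held 27297 to 5504864 UMIs. Levels are in CPM, the UMIs of a gene scaled by all UMIs of the sum. Only 1 barcode passed the limits in 2 libraries, day 3 library 2 and day 5. The files of uninjured library 1, day 5 and day 7 came from Cell Ranger 6.0.0 and the others from 7.1.0. The fits without uninjured library 1 thus compare day 3 with uninjured within a version, but not within a gene list. Uninjured library 2 and day 3 library 2 listed 31055 genes, and day 3 library 1 listed 32285.

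Some groups of nuclei stood apart from their names. The immune sum of uninjured library 1 rested on 35 nuclei, and its summed adipocyte markers (3041 CPM) and muscle markers (5202 CPM) exceeded its immune markers (1355 CPM), while in the other 5 libraries immune markers summed to 2907 to 8292 CPM. Without integration of the libraries, 7 of its 32 immune-like nuclei stayed immune-like. The 71 chondrocyte-like nuclei of uninjured library 2 had a median of 573 UMIs, and 0 of them kept that name without integration. No nucleus was SSPC-like without integration, yet all 309 remained stromal, so levels by compartment rest less on the names than levels by population do. In sums of nuclei, more nuclei of a type and more RNA per nucleus cannot be told apart.

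Runx1 was low in uninjured stroma and high in every stromal library after fracture. Its stromal level was 56.9 and 266 CPM in the uninjured libraries, 1509 and 2116 CPM at day 3, 2285 CPM at day 5 and 1404 CPM at day 7. Every injured library lay above both uninjured ones, and the groups did not overlap. Day 3 was higher than uninjured by 3.29 on the log2 scale (SE 0.56, n = 2 and 2, adjusted p = 0.00418, edgeR quasi-likelihood test). Runx1 was the only 1 of 4 members called higher in stroma, against 3.49% of 9482 genes tested (8.88% in either direction). The difference was 2.67 without uninjured library 1 (adjusted p = 0.000233) and 4.99 without uninjured library 2 (adjusted p = 0.00880, edgeR).

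Runx1 was also higher after injury within stromal clusters. Nuclei of the SSPC-like cluster had 15.5 and 77.6 CPM when uninjured (1 and 42 UMIs), 1116 and 1054 CPM at day 3, 1248 CPM at day 5 and 758 CPM at day 7. The 7 SSPC markers, among them Pi16 and Ly6a, went against that name after injury: within this cluster they summed to 6013 and 4624 CPM when uninjured, 329 and 536 CPM at day 3, 1267 CPM at day 5 and 987 CPM at day 7. In all stroma they summed to 3129 and 2440 CPM when uninjured and 183 and 176 CPM at day 3. Fibroblast-like nuclei had 87.8 and 314 CPM, then 1496 and 2377 CPM, 2186 CPM and 1409 CPM. In both clusters every injured library was above both uninjured ones. Without integration 0 of the fibroblast-like nuclei of the injured libraries kept that name, and nearly all stayed stromal. The fibroblast-like cluster scored 3.01 for IIFC and 2.78 for fibroblast markers, so it is not clearly apart from IIFC-like nuclei. IIFC-like nuclei, named from matrix genes such as Postn, had 180.0 CPM in uninjured library 2 (22 nuclei, 9 UMIs), 1631 and 2276 CPM at day 3, 3077 CPM at day 5 and 2234 CPM at day 7. Those 22 uninjured nuclei stood apart from their name: 1 kept it without integration, against 46 of 47 and 75 of 80 at day 3, and Postn, Tnn and Tnc were at 0 in them. Osteoblast-like nuclei had 766 CPM in uninjured library 2, 1214 CPM in day 3 library 2, 1495 CPM at day 5 and 1842 CPM at day 7. These population values carry no test, because few libraries held enough nuclei of each.

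**Figure D1:**
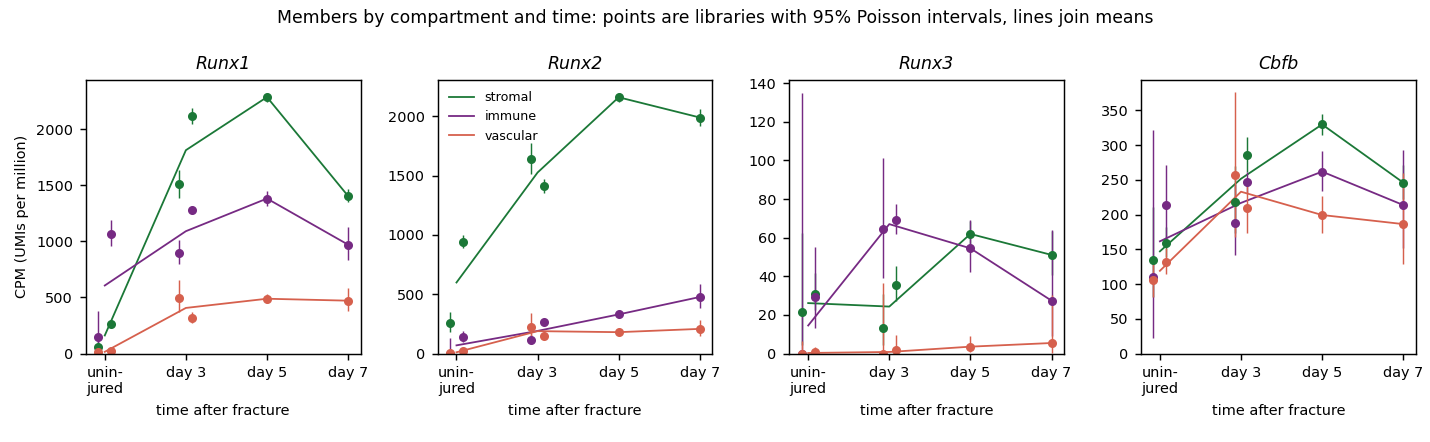
Level of each member (CPM) in stromal, immune and vascular nuclei of each library by time after fracture. Points are libraries with 95% Poisson intervals that cover counting error only, and lines join the means of the libraries. Stromal Runx1 goes from 56.9 and 266 CPM to 1404 to 2285 CPM after fracture, vascular Runx1 and Runx2 leave levels below 20 CPM, and Cbfb stays between 106 and 330 CPM in all compartments.

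RNA of immune cells moved with the stromal rise. The 9 immune markers summed to 99.5 and 44.2 CPM in the uninjured stromal sums and to 390 and 651 CPM at day 3. All 9 had a UMI in uninjured library 2 and day 3 library 2, while Csf1r, Mrc1, Itgam and Ikzf1 were at 0 in uninjured library 1 and Cd74 in day 3 library 1. With stromal nuclei that held a UMI of any of 10 immune genes (Ptprc, Dock2, Csf1r, Mrc1, Cd74, Lyz2, Itgam, S100a8, S100a9 and Csf3r) left out, 81 and 55 day 3 nuclei remained, and Runx1 was higher by 3.28 (adjusted p = 0.0215, edgeR). The day 3 stromal sums held 3864 and 3249 Runx1 UMIs per 1000 immune-marker UMIs, against 172 and 154 in the immune sums of the same libraries.

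In vascular nuclei, Runx1 and Runx2 both rose at day 3. Runx1 was at 12.0 and 19.6 CPM when uninjured, 495 and 319 CPM at day 3, 489 CPM at day 5 and 472 CPM at day 7. Runx2 was at 3.42 and 19.0 CPM (2 and 29 UMIs), then 227 and 151 CPM, 181 CPM and 208 CPM. In both genes every injured library was above both uninjured ones. The day 3 difference was 4.46 for Runx1 (SE 0.42, adjusted p = 0.0186) and 3.69 for Runx2 (SE 0.61, adjusted p = 0.0294, edgeR, n = 2 and 2). These were 2 of the 3 members tested, against 1.56% of 7929 genes called higher, 1.74% lower and 3.3% in either direction. In endothelial-like nuclei alone, which line vessels, the differences were 4.33 (adjusted p = 0.00929) and 3.78 (adjusted p = 0.0217, edgeR). Among vascular subclusters, libraries pooled, an unnamed one led by Plxdc2 and Itgbl1 (13 and 2 day 3 nuclei) held 421 CPM of Runx1. Another unnamed one, with Mki67 among its leading genes (7 and 45 day 3 nuclei), held 341 CPM. Capillary, arterial and lymphatic subclusters held 26.8 to 90.5 CPM, so the rise is not shown for each vessel type. Without day 3 library 2 the vascular Runx2 call was lost (4.11, adjusted p = 0.0502, edgeR).

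The vascular call rested on few nuclei with other cells' RNA in them. The day 3 libraries held 43 and 78 vascular nuclei, and the 9 immune markers summed to 593 and 707 CPM there, against 139 and 248 CPM when uninjured. The 8 IIFC markers summed to 584 and 1316 CPM at day 3, against 519 and 872 CPM, and the 8 muscle markers to 1395 and 396 CPM, against 566 and 619 CPM. Leaving out nuclei with a UMI of those 10 immune genes left 27 and 15 day 3 nuclei, in which Runx1 was at 149 and 124 CPM against 10.5 and 14.4 CPM (difference 3.26, adjusted p = 0.111, edgeR). Runx2 was then at 0 of 53611 UMIs in day 3 library 1, which allows up to 55.96 CPM, and at 95.4 CPM in library 2. Leaving out nuclei with an IIFC-marker UMI left 27 and 8 nuclei and a difference of 3.12 (adjusted p = 0.207, edgeR), with Runx1 at 104 and 102 CPM at day 3, 62.8 CPM at day 5 and 187 CPM at day 7, and Runx2 at 17.3 and 81.7 CPM at day 3. Under either limit 0 genes were called in any direction and Runx2 did not pass the low-count filter. The part of other cells' RNA in the vascular calls was not tested beyond these values. In day 3 library 2, Runx1 had 243 UMIs per 1000 IIFC-marker UMIs in vascular nuclei and 232 in stromal ones, whereas in day 3 library 1 it had 847 and 257. For Runx2 the same ratios were 115 and 154 in library 2, and 390 and 279 in library 1.

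Pericyte/SMC-like nuclei were too few at day 3 (4 and 9) for a comparison. In the cluster led by the pericyte genes Rgs5 and Notch3, Runx1 was at 0 CPM in 16 nuclei of uninjured library 1 (which allows up to 180 CPM) and 91.0 CPM in 19 nuclei of library 2. It reached 1501 CPM in 65 nuclei at day 5 and 1052 CPM in 30 nuclei at day 7. In the smooth muscle cluster, marked by the contractile gene Myh11, it was at 0 of 146948 UMIs and at 20.6 CPM in the 44 nuclei of each uninjured library, and at 433 CPM in 13 nuclei at day 5. The Rgs5 and Notch3 cluster scored 4.35 for pericyte/SMC and 2.17 for IIFC markers. Over all vascular nuclei the 8 IIFC markers summed to 2252 CPM at day 5. Without nuclei holding an IIFC-marker UMI, vascular Runx1 was at 62.8 CPM at day 5 and 187 CPM at day 7, against 489 and 472 CPM. The part of other cells' RNA in these clusters was not tested.

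In immune nuclei Runx1 was already high before fracture in the library that held clear immune nuclei. Its levels were 147 CPM in uninjured library 1 (4 UMIs) and 1067 CPM in library 2, 900 and 1281 CPM at day 3, 1381 CPM at day 5 and 971 CPM at day 7. The day 3 values lay on both sides of uninjured library 2, and the difference was 0.85 (SE 0.89, adjusted p = 0.998, edgeR). Without uninjured library 1 it was 0.13 (adjusted p = 0.9995), and without uninjured library 2 it was 3.50 (adjusted p = 0.0935, edgeR). In the immune comparison edgeR called 0 of 4 members and 0% of 5745 genes, with 440 genes at an unadjusted p under 0.05. DESeq2 called 2 genes higher and 74 lower, no member among them.

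The day 3 change of Runx1 was smaller in immune than in stromal nuclei. A single fit over the 3 compartments with the library as a term gave a difference of changes of -2.35 (SE 0.61, adjusted p = 0.0185, edgeR), a call shared by 1.73% of 9895 genes in that direction and by 0.819% in the other. For Runx2 the vascular change exceeded the stromal one by 2.62 (SE 0.68, adjusted p = 0.0148, edgeR), as for 1.68% of genes, with 1.21% in the other direction. Both calls were lost without uninjured library 2 (adjusted p = 0.544 and 0.0654), without day 3 library 1 (0.600 and 0.42) and without day 3 library 2 (0.455 and 0.569), and both held without uninjured library 1. The other differences between compartments were not called (adjusted p from 0.317 to 1.00, edgeR), but without uninjured library 1 the vascular change of Runx1 exceeded the stromal one by 1.499 (adjusted p = 0.0484, edgeR).

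**Figure D2:**
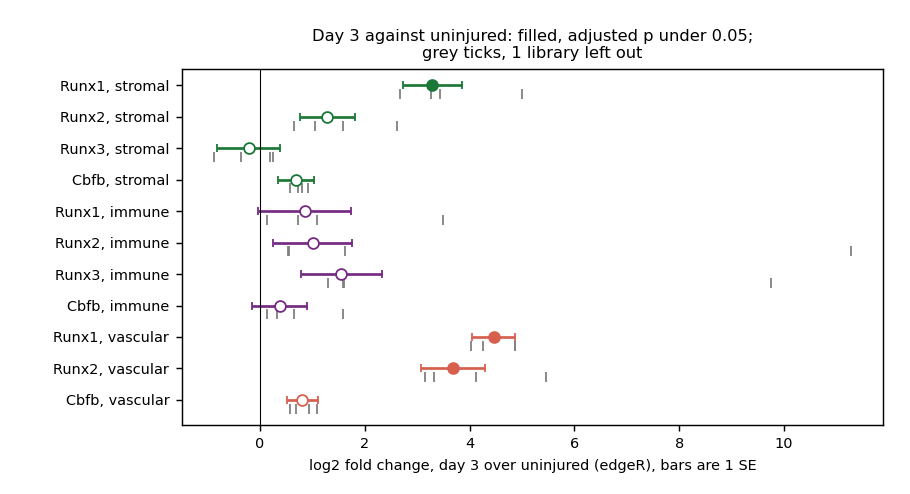
Change of each member at day 3 against uninjured (log2, edgeR) in the 3 compartments. Points are estimates with bars of 1 SE, filled where the adjusted p is under 0.05, and grey ticks are the fits without 1 library each. Stromal Runx1 (3.29) and vascular Runx1 (4.46) and Runx2 (3.69) are filled, and the 2 uninjured libraries widen the immune ticks, up to 11.3 for Runx2, a fit against 0 UMIs that is no fold size.

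Across populations Runx1 had its highest mean level in IIFC-like nuclei. The mean over libraries with at least 10 nuclei was 1880 CPM (SD 1080.2, n = 5) there. It was 1329 CPM in osteoblast-like nuclei (SD 455, n = 4), 1312 CPM in fibroblast-like (SD 942, n = 6), 1233 CPM in osteoclast-like (SD 334, n = 4), 1156 CPM in tendon-like (SD 893, n = 6) and 950.4 CPM in immune-like nuclei (SD 444, n = 6). Of the 9 pairs of neighbours compared, none differed beyond the spread over libraries except fibroblast-like above osteoclast-like nuclei (0.60 on the log2 scale, SD 0.30, 4 of 4 libraries). The lowest means were in endothelial-like (198 CPM, n = 6), adipocyte-like (76.3 CPM, n = 2) and Schwann-like nuclei (20.0 CPM, n = 2). The adipocyte-like and Schwann-like means hold uninjured libraries only, where endothelial-like nuclei had 16.6 and 14.2 CPM. The order of means therefore mixes population with time.

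Pooled over the libraries, the share of nuclei with a Runx1 UMI was also highest in IIFC-like nuclei. After thinning every nucleus to 500 UMIs, 58.5% of 874 IIFC-like nuclei held one (95% exact interval 55.1 to 61.8), against 3.67% of 900 endothelial-like nuclei (2.54 to 5.11) and 4.55% of 66 Schwann-like nuclei (0.947 to 12.7). Unthinned shares were 84.4%, 14.5% and 15.2%, at median depths of 2874, 2182 and 1861 UMIs. Immune-like nuclei held one in 39.9% (37.6 to 42.1). These shares pool libraries, so they mix population with time. The uninjured libraries gave 6 and 22 of the 877 IIFC-like nuclei, but 212 and 261 of the 901 endothelial-like nuclei. In all vascular nuclei the share was 1.10% and 0% when uninjured, and 16.3%, 10.3%, 13.8% and 13.3% in the injured libraries. Pooled shares of the other members, given below, mix time in the same way.

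Among the 12 populations, Runx2 was highest in osteoblast-like nuclei. Its level was 5840 CPM in uninjured library 2 (67 nuclei), 4401 CPM in day 3 library 2 (27 nuclei), 5319 CPM at day 5 and 4376 CPM at day 7, a mean of 4984 CPM (SD 720, n = 4). Of the 4 values, uninjured periosteum gave the highest. Without integration 9 of the 67 nuclei of uninjured library 2, 10 of 27 of day 3 library 2, 91 of 173 of day 5 and 10 of 50 of day 7 kept the name, and nearly all stayed stromal. The cluster scored 3.57 for osteoblast and 3.26 for IIFC markers, so its Runx2 and Runx3 levels rest on the integrated clustering. The naming genes of this cluster, such as Sp7 and Ibsp, did not include Runx2, and the Runx genes took no part in the clustering. A Runx2 UMI was found in 75.1% of 329 osteoblast-like nuclei thinned to 500 UMIs (70.0 to 79.7), against 2.89% of 900 endothelial-like nuclei (1.896 to 4.204), at unthinned median depths of 1894 and 2182 UMIs. The unthinned shares were 89.7% and 9.54%.

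In chondrocyte-like nuclei, which make cartilage matrix such as Col2a1 and Acan, Runx2 was at 2127 CPM at day 5 (95% Poisson interval 2035 to 2222) and 2969 CPM at day 7 (2830 to 3113). Over the same days Runx1 was at 1340 CPM (1267 to 1416) and 645 CPM (581 to 714). With 1 library a day these opposite steps have no replicate check. The shallow uninjured nuclei in this cluster held 521 CPM of Runx2 and 241 CPM of Runx1, from 26 and 12 UMIs.

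Runx2 in the remaining stroma was low before fracture. SSPC-like nuclei had 0 of 35 nuclei with a UMI in uninjured library 1 (0 UMIs, which allows up to 46.5 CPM), 68.3 CPM in library 2, and 421 to 670 CPM in the 4 injured libraries. IIFC-like nuclei had 1325 and 1630 CPM at day 3, 2020 CPM at day 5 and 1385 CPM at day 7. Summed over all stroma, Runx2 was at 256 and 942 CPM when uninjured, 1642 and 1411 CPM at day 3, 2161 CPM at day 5 and 1990.0 CPM at day 7. The day 3 libraries lay above both uninjured ones, but the difference of 1.28 (SE 0.53) had an adjusted p of 0.176 (edgeR).

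That stromal Runx2 value turned on which nuclei were summed. With osteoblast-like and chondrocyte-like nuclei left out, the levels were 77.9 and 262 CPM when uninjured, 1302 and 1132 CPM at day 3, 1639 CPM at day 5 and 1222 CPM at day 7. The day 3 difference was then 2.67 (SE 0.52, adjusted p = 0.00911, edgeR). The osteoblast-like cluster held 67 of the 362 stromal nuclei of uninjured library 2 and 27 stromal nuclei of day 3 library 2. Over all stroma the call was also made without day 3 library 2 (1.59, adjusted p = 0.00412) and without uninjured library 1 the difference fell to 0.64 (adjusted p = 0.624, edgeR).

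**Figure D3:**
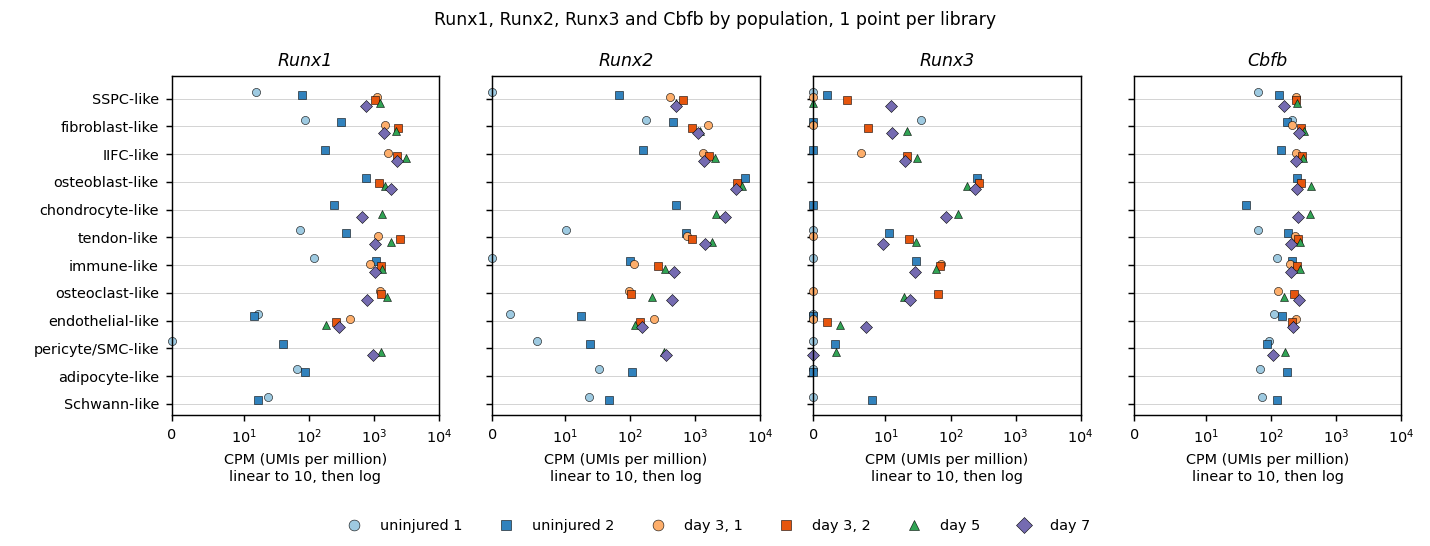
Level of each member (CPM, symmetric log axis) in the 12 populations. Points are libraries with at least 10 nuclei, coloured by time after fracture. Osteoblast-like nuclei lead for Runx2 (4376 to 5840 CPM) and Runx3 (179 to 270 CPM), IIFC-like nuclei reach 3077 CPM of Runx1, and Cbfb varies least between populations.

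Runx3 was the rarest member, and among the 12 populations its highest levels were in osteoblast-like nuclei. The small T/NK-like subcluster within the immune nuclei, described below, was higher at 444 CPM (34 nuclei). Osteoblast-like nuclei had 251 CPM in uninjured library 2 (41 UMIs), 270 CPM in day 3 library 2 (42 UMIs), 179 CPM at day 5 and 235 CPM at day 7, a mean of 234 CPM (SD 39.4, n = 4). Chondrocyte-like nuclei had 132 CPM at day 5 (110 to 158) and 85.2 CPM at day 7 (63.0 to 113). Both populations exceeded immune-like nuclei in those libraries, which held 59.5 and 28.5 CPM. SSPC-like nuclei held 3 Runx3 UMIs in 309 nuclei, endothelial-like nuclei 5 in 901, and adipocyte-like nuclei 0 in 41, which allows up to 9.99 CPM.

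A Runx3 UMI was found in 10.0% of osteoblast-like nuclei thinned to 500 UMIs (7.01 to 13.8) and 4.38% of chondrocyte-like ones (2.77 to 6.56), against 0.111% of 900 endothelial-like nuclei (0.00281 to 0.617). The unthinned shares were 36.2%, 18.9% and 0.555%, at median depths of 1894, 1722 and 2182 UMIs. Stromal Runx3 was at 21.3 and 30.97 CPM when uninjured and 13.3 and 35.4 CPM at day 3, groups that overlap, with a difference of -0.21 (SE 0.60, adjusted p = 0.899, edgeR). Its sign turned under 2 other ways of clustering. Immune Runx3 was at 0 and 29.1 CPM, then 64.8 and 69.3 CPM, with a difference of 1.55 (SE 0.77, adjusted p = 0.776, edgeR). In vascular nuclei it had at most 1 UMI in each of the 4 libraries and was not tested.

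Cbfb, the shared partner, was the evenest member. Stromal levels were 135 and 159 CPM when uninjured, 218 and 286 CPM at day 3, 330 CPM at day 5 and 246 CPM at day 7. Vascular levels were 106 and 132 CPM, then 257 and 209 CPM, 200 CPM and 186 CPM. In both compartments the day 3 libraries lay above the uninjured ones, but the differences of 0.69 (SE 0.34, adjusted p = 0.274) and 0.80 (SE 0.30, adjusted p = 0.210) did not pass the edgeR test. Non-overlap with day 3 higher was common, at 27.6% of stromal and 28% of vascular genes (22.6% and 20.8% with day 3 lower), and held for 3 of 4 stromal and 3 of 3 vascular members. Immune Cbfb was at 110 and 213 CPM, then 187 and 246 CPM, with a difference of 0.37 (adjusted p = 0.998, edgeR). Population means ran from 96.4 CPM in Schwann-like nuclei (uninjured libraries only, n = 2) to 295 CPM in osteoblast-like nuclei (SD 74.7, n = 4). None of the 9 pairs of neighbours compared, without adipocyte-like and Schwann-like nuclei, differed beyond the spread. A Cbfb UMI was found in 14.3% of osteoblast-like nuclei thinned to 500 UMIs (10.7 to 18.5) and 7.11% of endothelial-like ones (5.52 to 8.99).

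Runx1 and Runx2 were higher in stromal than in vascular nuclei in every library. Stroma exceeded vascular nuclei in Runx1 in 6 of 6 libraries (mean log2 difference 2.14, SD 0.69), in Runx2 in 6 of 6 (3.67, SD 0.85) and in Runx3 in 6 of 6 (1.86, SD 0.40). In day 3 library 1 that Runx3 direction rests on 5 stromal UMIs (13.3 CPM) and 0 vascular ones, which allow up to 29.7 CPM, so it is not shown there. Runx2 was also higher in stroma than in immune nuclei in 6 of 6 (3.03, SD 1.01), whereas Runx1 was higher there in 4 of 6 (-0.08, SD 1.20). The exact two-sided sign-flip permutation test gave p = 0.0312 for each 6-of-6 pair, the smallest p that 6 libraries allow, and 0.075 after adjustment over 12 comparisons. None of the 12 passed 0.05 after adjustment. The 3 Cbfb pairs differed by 0.13 to 0.31.

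Per kilobase of gene body, a scale used here only to set genes beside each other since nuclear RNA is mostly intronic, mean stromal levels were 5.67 CPM per kb for Runx1, 4.84 for Cbfb, 4.39 for Runx2 and 0.622 for Runx3. In immune nuclei they were 4.26 for Runx1, 4.34 for Cbfb, 0.695 for Runx2 and 0.712 for Runx3. In vascular nuclei Cbfb led with 3.84, followed by Runx1 with 1.34, Runx2 with 0.413 and Runx3 with 0.0332. Each level is the mean over the 6 libraries.

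The balance of Runx1 and Runx2 differed between populations. Runx1 UMIs made up 7.41% to 29.6% of the summed Runx1 and Runx2 UMIs of osteoblast-like nuclei over 6 libraries, 55.2% to 61.7% in IIFC-like nuclei over 4 and 67.9% to 91.2% in immune-like nuclei over 5. The 3 ranges did not overlap, but the range of every other population shown overlapped some of them. Among those were SSPC-like nuclei with 53.2% to 72.6%, fibroblast-like with 40.5% to 72.3% and chondrocyte-like with 17.8% to 89.1%. The IIFC-like range came from injured libraries only. The osteoblast-like 7.41% rests on 2 Runx1 and 25 Runx2 UMIs in 6 nuclei of uninjured library 1. Day 3 library 1 also gave only 6 osteoblast-like nuclei. In osteoblast-like nuclei the share was 11.6% in uninjured library 2 (9.74 to 13.7), 21.6% in day 3 library 2 (18.9 to 24.5), 21.9% at day 5 (20.7 to 23.2) and 29.6% at day 7 (25.4 to 34.1). Day 5 chondrocyte-like nuclei had a share of 38.7% (37.0 to 40.3), and those of day 7 had 17.8% (16.2 to 19.6). In immune-like nuclei it was highest in uninjured library 2 (91.2%) and lowest at day 7 (67.9%). These shares count UMIs and are not corrected for gene length.

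**Figure D4:**
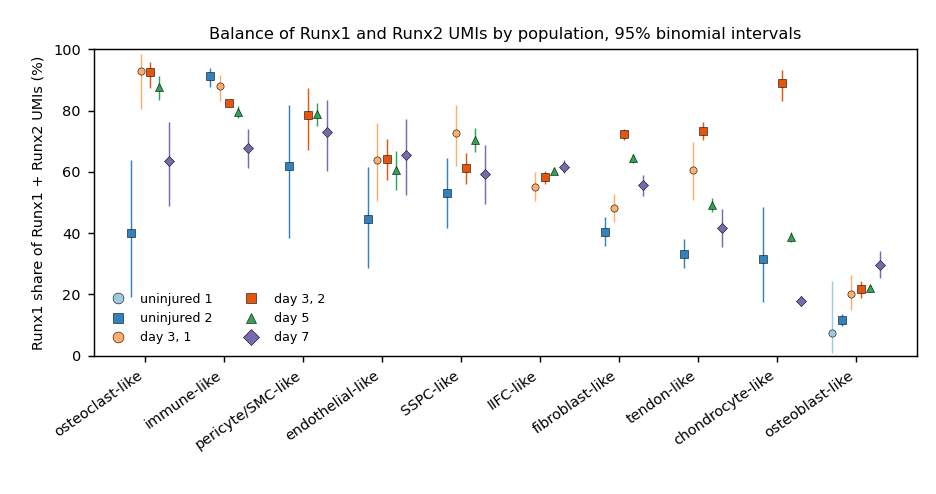
Runx1 UMIs as a percentage of Runx1 plus Runx2 UMIs, by population and library, with 95% exact binomial intervals that cover counting error only. Libraries with at least 20 such UMIs are shown. Osteoblast-like nuclei lie at 7.41% to 29.6%, IIFC-like at 55.2% to 61.7% and immune-like at 67.9% to 91.2%. The osteoblast-like point at 7.41% is 6 nuclei of uninjured library 1. The chondrocyte-like point near 89.1% is 5 nuclei of day 3 library 2.

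With libraries pooled, the share of nuclei holding both Runx1 and Runx2 was close to or somewhat above the product of the single shares. After thinning to 500 UMIs, 248 of 874 IIFC-like nuclei (28.4%) held a UMI of both, and the product of the single shares was 25.0%. In osteoblast-like nuclei 27.1% of 329 held both, against a product of 26.7%, and 48.0% held Runx2 alone. In chondrocyte-like nuclei 15.1% of 502 held both, against 14.4%. The uninjured stroma held few such nuclei, with 2 of 95 in library 1 and 17 of 353 in library 2. At day 5 it was 308 of 1094.

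Within immune nuclei the members differed in level between subsets. Runx3 was highest in the T/NK-like subcluster, at 444 CPM (34 nuclei, 42 UMIs, 95% Poisson interval 320 to 601), followed among named ones by dendritic-like nuclei at 136 CPM (105 nuclei, 104 to 174). In the Cd163-led macrophage-like subcluster it was at 6.04 CPM (1 UMI in 41 nuclei). Those macrophage-like nuclei, 29 of them from uninjured library 2, held 1439 CPM of Runx1 (1262 to 1633) and 96.7 CPM of Runx2 (55.3 to 157). In uninjured library 2 alone they held 1363 CPM of Runx1 and 0 Runx2 UMIs. Runx1 was at 1826 CPM in monocyte-like nuclei (55, of which 51 from day 3 library 2) and 1920 CPM in B-like nuclei (27).

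Runx2 was at 10181 CPM (257 UMIs, 95% Poisson interval 8974 to 11504) in an unnamed immune subcluster of 10 nuclei, 6 from day 3 library 2 and 4 from day 5. This subcluster was singled out after its values were seen. Its leading genes were Grm8 and Siglech, the latter known from plasmacytoid dendritic cells, and its Runx2 level exceeded that of osteoblast-like nuclei in every library with at least 10 of them. The T/NK-like nuclei followed among subclusters of at least 10 nuclei, with 614 CPM of Runx2 (466 to 793). All subclusters pool libraries and carry no test between times.

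**Figure D5:**
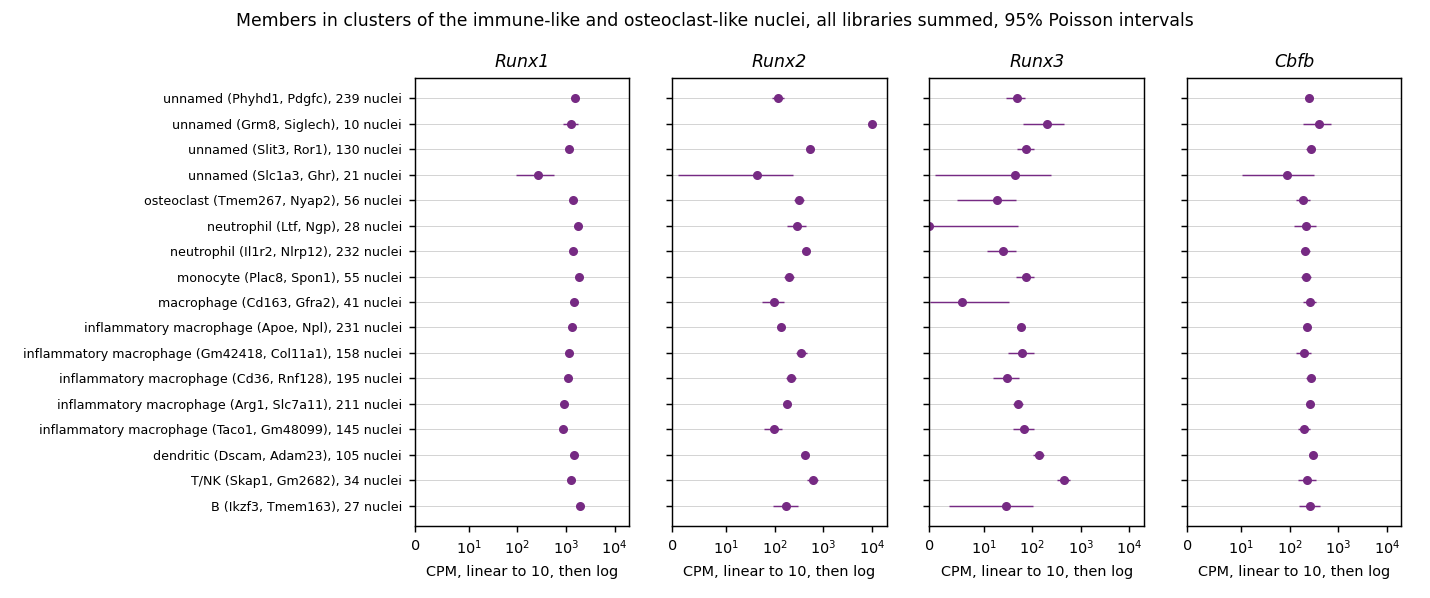
Level of each member (CPM) in the immune subclusters with at least 10 nuclei, libraries pooled, with 95% Poisson intervals that cover counting error only. Runx3 peaks in T/NK-like nuclei (444 CPM), and the unnamed 10-nucleus subcluster led by Grm8 and Siglech holds 10181 CPM of Runx2.

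The genes most like each member were found by the Pearson correlation of log2(CPM + 10) over 51 sums of a population in a library, among 7414 genes. The sums share libraries and depth, so these values describe likeness only. Runx1 was most like Trps1 (0.85), a GATA-type repressor of skeletal cells, then Rrbp1, Snd1, Runx2 (0.82) and Fmn1. Runx2 was most like Gm13832 (0.85), Col1a2 (0.83), a chain of type I collagen, Rrbp1, Runx1 and Prtg. Runx3 was most like Ibsp (0.76), Slc13a5, A430106G13Rik, Sp7 (0.72) and Cpa6, of which the bone matrix gene Ibsp and the osteoblast factor Sp7 also named the osteoblast-like cluster. Cbfb was most like Snd1 (0.77), Rrbp1, Ascc3, Chsy1 and Runx1 (0.73).

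The partners of RUNX proteins, among them Groucho-type repressors, histone acetylases and deacetylases, gave few calls. Of 41 partners and cofactors, 40 were tested in stroma, 0 were called higher and 1 lower, against 3.49% higher and 5.39% lower of all genes, and their median change was -0.15, against 0.02 over all genes tested. The lower gene was the Groucho-type repressor Tle4, at 114 and 85.5 CPM when uninjured and 29.2 and 37.1 CPM at day 3 (difference -1.59, SE 0.44, adjusted p = 0.0442, edgeR). Under DESeq2, with library size scaling and without uninjured library 2, 0 partners were called lower. By level, Trps1 was the most abundant partner (5360 CPM in chondrocyte-like nuclei), followed by Zfp521 (1939 CPM in endothelial-like nuclei), Ddx5 and Crebbp.

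Of 10 genes listed under RUNX protein turnover, 9 were tested in stroma. Of these, 1 was called higher and 0 lower, against 3.49% and 5.39% of all genes. It was the ubiquitin ligase Wwp2, at 85.3 and 64.9 CPM, then 133 and 257 CPM (1.36, SE 0.39, adjusted p = 0.0499, edgeR). What Wwp2 does to RUNX proteins was not tested. Under DESeq2, with library size scaling, with markers kept in the clustering and without uninjured library 2, 0 genes of this list were called. The median was 0.54, against 0.02 over all genes. The highest mean levels were those of Smurf2, Wwp2, Usp9x and Itch.

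Known RUNX2 targets of bone and cartilage were mostly highest in osteoblast-like nuclei. Of 33, 8 also named populations, and of the other 25 the highest level was in osteoblast-like nuclei for 13 and in chondrocyte-like nuclei for 6. Col1a2 (6333 CPM), Col1a1 (3846 CPM), Fgfr2 (1254 CPM) and Sparc (1144 CPM) led, each highest in osteoblast-like nuclei. In stroma 18 were tested, with a median change of 0.04. Of these, 2 were called higher and 1 lower, against 3.49% and 5.39% of all genes. Tnfsf11, the ligand that drives osteoclast formation, was at 0 and 6.64 CPM, then 71.7 and 42.3 CPM (adjusted p = 0.0218, edgeR). Ibsp was at 28.4 and 25.8 CPM, then 74.4 and 127 CPM (1.86, SE 0.46, adjusted p = 0.0263, edgeR). Gli1, a readout of hedgehog signalling, was at 49.8 and 53.8 CPM, then 0 and 2.86 CPM (-4.65, SE 0.78, adjusted p = 0.00358, edgeR).

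Of 31 targets of RUNX1 and RUNX3 in blood cells, 8 were tested in stroma. Of these, 4 were called higher and 2 lower, against 3.49% and 5.39% of all genes. The higher ones were Spi1, Csf1r, Itgam and Ccr2, genes of myeloid cells that were at 0 to 2.21 CPM when uninjured and 18.3 to 56.0 CPM at day 3, and 2 of the list (Csf1r and Itgam) are naming markers of immune nuclei. With stromal nuclei that held a UMI of those 10 immune genes left out, 3 were tested, 0 were called higher and 2 lower. Csf1r and Itgam are among those 10 genes, so they had 0 UMIs there by design and could not be called. The lower ones were Bcl2, an inhibitor of cell death, at 228 and 195 CPM, then 34.5 and 81.7 CPM (-1.87, SE 0.40, adjusted p = 0.0124, edgeR), and Lmo2 (-2.25, adjusted p = 0.0439). In vascular nuclei 7 were tested, and 1 was called higher and 0 lower, against 1.56% and 1.74% of all genes. The called one was the neutrophil receptor gene Csf3r, at 0 and 1.96 CPM, then 29.7 and 59.5 CPM (adjusted p = 0.0291, edgeR).

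The 2 lists of transcription factors drawn up by the study from these same libraries, and so no independent evidence of direction, were read last. Of 20 fibro-core factors other than the Runx genes, 7 were called higher in stroma and 0 lower, against 3.49% and 5.39% of all genes. Their median was 1.22, against 0.02 over all genes. The 4 of smallest adjusted p were E2f3 (2.33), Junb (2.68), Etv6 (1.95) and Bcl3 (2.45), with adjusted p of 0.00321, 0.00408, 0.00973 and 0.0195 by edgeR. The count was 5 of 18 tested without nuclei holding a UMI of those 10 immune genes, and 1 of 20 without uninjured library 2. Of 7 osteo-core factors, 5 were tested in stroma and 0 called, and of the 6 that named no population 4 were highest in osteoblast-like nuclei. In vascular nuclei 18 fibro-core factors were tested, 1 was called higher and 1 lower, against 1.56% and 1.74% of all genes. The higher one was the cell-cycle factor E2f3 (1.56, adjusted p = 0.0498, edgeR). In immune nuclei 0 genes of any list were called.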

How the data were processed

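Nuclei of mouse tibial periosteum were profiled by 10x Genomics 3' single-nucleus RNA-seq in 6 libraries: 2 uninjured, 2 at day 3, 1 at day 5 and 1 at day 7. The deposited values are raw UMI counts per gene and nucleus, which the authors made with Cell Ranger (6.0.0 or 7.1.0 per the file headers) on mm10 with intronic and exonic reads. One protocol label names a human build, while all gene identifiers are mouse.

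Barcodes with 200 to 5000 genes, at most 2% mitochondrial and 1.5% ribosomal UMIs were kept, integrated and clustered in Seurat 5.3.0 (20 components, resolution 1.3, 2000 features) without the members or listed genes among the features, and muscle clusters were removed. A cluster was named by its highest-scoring class with at least 3 markers in 10% of its nuclei. Under the first form of this rule a cluster of 661 nuclei had no name. After the clusters, but no value of a member, had been seen, the rule was changed to accept the next class within 1 log2 unit, and that cluster became fibroblast-like. Doublets were marked with scanpy 1.11.5 (0.27% to 4.06% of a library) and kept, except in an alternative.

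Counts were summed per compartment and library, and day 3 was tested against uninjured by the edgeR 4.0.16 quasi-likelihood test with TMM scaling, its low-count filter and Benjamini-Hochberg adjustment over all genes tested. Changes were compared between compartments in 1 fit with the library as a term. The shared library term means that compartments of a library are not independent samples. Day 5 and day 7 have 1 library each and no test. Each library pooled several animals, and p-values measure the spread between libraries, which may be technical. Compartments were compared by exact two-sided sign-flip permutation tests of log2(CPM + 10) over 6 libraries. Population values needed 10 nuclei in a library. Shares used nuclei thinned to 500 UMIs. Intervals are 95% exact (binomial or Poisson), a count of 0 allows up to 3 counts, and both cover counting error only. On simulated counts with changes of 3 on the log2 scale, the edgeR step recovered 96.4% of changed genes in stromal (9313 genes tested), 56.8% in immune (5961) and 91.9% in vascular sums (7963). Alternatives were DESeq2 1.42.0, other scaling, filters, clustering and nuclei, and each library left out. Named genes were the members, the genes most like them, the called genes of each list (the smallest adjusted p where many, and 1 lower vascular call that is not reported here by name) and the most abundant ones. The members and lists were chosen with earlier results of these data known.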

Additional observations from a re-analysis of the deposited data

Results flagged for a closer look

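Runx1 was marked because its day 3 change differed between compartments: the immune change was lower than the stromal one by a log2 difference of -2.35 (SE 0.61, adjusted p = 0.0185, edgeR), with stromal Runx1 at 56.9 and 266 CPM before and 1509 and 2116 CPM after, and immune Runx1 at 147 and 1067 CPM before and 900 and 1281 CPM after. Runx2 was marked because its vascular change exceeded its stromal one by 2.62 (SE 0.68, adjusted p = 0.0148, edgeR), from 3.42 and 19.0 CPM to 227 and 151 CPM in vascular nuclei and from 256 and 942 CPM to 1642 and 1411 CPM in stroma. Without uninjured library 1, whose immune nuclei carried more muscle and adipocyte than immune markers, the differences were -2.49 (adjusted p = 9.55e-07) and 2.45 (adjusted p = 8.52e-05). Both calls were lost in each of the other 3 fits that left out 1 library, and what set the differences was not tested.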

How the results depend on the processing

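No paired analysis was possible because replicate numbers only follow the order of deposit. Stromal Runx1 was past the threshold under 15 of 15 alternatives (2.67 to 4.99), vascular Runx1 under 13 of 15 and vascular Runx2 under 11 of 13. Where a call or sign changed, the cause was not tested.

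Stromal Runx2 was called with no filter on low counts (1.37) and without osteoblast-like and chondrocyte-like nuclei (2.67), and stromal Runx3 turned to 0.0895 without integration and 0.13 with markers kept among the features. Vascular Runx1 lost its call without nuclei holding immune (3.26) or IIFC markers (3.12), both chosen after seeing the data, and vascular Runx2 without integration (3.35) and without day 3 library 2 (4.11). Genes called higher in stroma numbered 202 under DESeq2, 556 with no filter and 150 without nuclei holding an immune gene, with 277 lower in the last. Immune genes called higher numbered 2, 11 and 5 (DESeq2, no filter, no integration), and lower 74 (DESeq2), 4 (library size), 97 (no filter), 2 (wider limits on nuclei), 36 (no integration) and 37 (markers kept). Vascular genes higher numbered 333 with no filter and 0 and 0 under the marker limits, and lower 78 (library size), 505 (no filter), 0 and 0. Stromal minus immune Runx3 turned to -0.0517 with log2(CPM + 50) and -0.0822 without integration, and Cbfb to -0.16 without integration.

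Shares thinned to 1000 UMIs and unthinned were 80.8% and 84.4% (Runx1, IIFC-like), 6.05% and 14.5% (Runx1, endothelial-like), and in osteoblast-like nuclei 89.7% and 89.7% (Runx2), 19.8% and 36.2% (Runx3) and 28.97% and 45.3% (Cbfb).

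Without 1 library, day 3 changes ranged in stroma from 2.67 to 4.99 (Runx1), 0.64 to 2.62 (Runx2), -0.88 to 0.25 with 0.19 also above 0 (Runx3) and 0.57 to 0.91 (Cbfb), with 44 to 466 genes higher and 138 to 661 lower. In immune nuclei they were 0.13 to 3.50, 0.54 to 11.27, 1.302 to 9.75 and 0.13 to 1.59 in the same order, with 0 to 1 and 0 to 34 genes. The 11.27 and 9.75 were fitted against 0 UMIs of Runx2 and Runx3 in uninjured library 1 (which allows up to 109.9 CPM) and are no fold sizes. In vascular nuclei they were 4.03 to 4.87 (Runx1), 3.15 to 5.45 (Runx2) and 0.57 to 1.0798 (Cbfb), with 23 to 235 and 31 to 313 genes. Immune minus stromal changes ranged over -2.49 to -1.51 (Runx1), -0.69 to 8.00 (Runx2), 1.57 to 8.65 (Runx3) and -0.37 to 0.68 (Cbfb). Vascular minus stromal changes ranged over -0.23 to 1.499, 2.45 to 2.78, -0.61 to 3.00 and -0.25 to 0.26, with -0.08 for Cbfb also reversed. Stromal minus immune levels ranged over -0.24 to 0.30 (Runx1, 0.15 also reversed), 2.69 to 3.23, -0.31 to 0.36 (Runx3, -0.01 and -0.12 also reversed) and 0.10 to 0.24. Stromal minus vascular levels ranged over 1.93 to 2.26, 3.39 to 3.84, 1.75 to 1.99 and 0.23 to 0.42, and immune minus vascular over 1.63 to 2.499, 0.29 to 0.94, 1.63 to 2.21 and 0.08 to 0.30.

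Depth limited Runx3, which had at most 1 UMI in each vascular sum compared, and uninjured library 1, with 8 stromal and 4 immune Runx1 UMIs.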

Other observations

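Tendon-like nuclei, led by Nlgn1, Ntng1, Thbs4 and the tendon factor Mkx, belonged to no compartment. Runx1 was at 73.4 and 371 CPM there when uninjured, 1155 and 2486 CPM at day 3, 1805 CPM at day 5 and 1044 CPM at day 7. Runx2 was at 10.5 and 741 CPM, then 753 and 904 CPM, 1863 CPM and 1460 CPM. No tendon-like nucleus kept its name without integration, and no test was made. Osteoclast-like nuclei, which resorb bone, held 1251 and 1293 CPM of Runx1 at day 3, 1600.1 CPM at day 5 and 789 CPM at day 7.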
